A study of Mus musculus with 12 samples.

Results

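The genes described here release iron from heme, clear the pigments that result, and store, import, export and sense iron. They are 10 genes of 48795 in the count tables, chosen by name and matched by symbol to the Ensembl identifiers: Hmox1, Hmox2, Blvra, Blvrb, Fth1, Ftl1, Tfrc, Slc40a1, Slc11a2 and Ireb2. All 10 were among the 14838 genes with enough counts to be tested. RNA was sequenced from C2C12 cells, mouse muscle precursors grown as a line that form myotubes when serum is reduced, after 5 days in horse serum, in 12 libraries. In the gRc+H2O2 group, 10 µM of ginsenoside Rc (gRc, a saponin of ginseng) was given for 18 h and 0.25 mM H2O2 then for 6 h, although a tag of these libraries reads 24 h of gRc pretreatment. The H2O2 group had vehicle for 18 h and 0.25 mM H2O2 for 6 h, the gRc group had 10 µM gRc for 24 h, and the vehicle group had 0.02% DMSO for 24 h. Each group had 3 libraries, and nothing in the labels says that they came from separate cultures, so every p-value measures only how these libraries vary, which may be technical variation.

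Heme oxygenases open the heme ring and release iron, carbon monoxide and biliverdin, which the biliverdin reductase encoded by Blvra turns into bilirubin. Hmox1 encodes the inducible form of the enzyme, held down by the repressor BACH1 and switched on by NRF2 with small MAF partners when cells meet oxidants or heme. Freed iron is stored in ferritin, a shell of heavy (Fth1) and light (Ftl1) chains, or leaves the cell through ferroportin (Slc40a1). Muscle holds much iron in myoglobin and in the respiratory chain, and iron that is not bound can turn hydrogen peroxide into the more reactive hydroxyl radical.

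For some of these genes, part of the control lies in their messages. Iron regulatory proteins, one of them encoded by Ireb2, bind hairpins called iron responsive elements when iron is scarce. In the 5′ UTR of a ferritin mRNA the bound protein blocks translation, and in the 3′ UTR of the transferrin receptor mRNA it protects the message from decay. The elements of Fth1, Ftl1 and Tfrc are shown because they are the sequences through which iron acts on 3 of the genes measured here. They were found on the transcript strand of the GENCODE M21 transcripts (GRCm38) as a C, any 5 bases, CAGTG and any base (loop CAGTGN), with 5 bases on either side of the loop that could pair. Capitals mark the loop.
Fth1, chr19:9982732-9982761, + strand, 5′ UTR, exon 1 of 4: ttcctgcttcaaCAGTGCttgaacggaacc
Ftl1, chr7:45459778-45459807, - strand, 5′ UTR, exon 1 of 4: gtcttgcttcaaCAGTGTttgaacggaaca
Tfrc, chr16:32631219-32631248, + strand, 3′ UTR, exon 19 of 19: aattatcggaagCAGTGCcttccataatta
Tfrc, chr16:32631598-32631627, + strand, 3′ UTR, exon 19 of 19: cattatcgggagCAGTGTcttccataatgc
Tfrc, chr16:32631663-32631692, + strand, 3′ UTR, exon 19 of 19: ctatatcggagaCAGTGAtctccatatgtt
Tfrc, chr16:32631710-32631739, + strand, 3′ UTR, exon 19 of 19: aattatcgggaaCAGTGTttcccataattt

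The pattern matched 4 of the 10 genes, since Slc40a1 also had 1 match in its 5′ UTR, and it matched 294 of 21901 protein-coding genes (1.34%). The 4 elements of Tfrc stand within 1 exon. Elements whose bases pair in another way were not searched. Counts of mRNA cannot show whether ferritin messages were translated. The core of the antioxidant response element, through which NRF2 acts, was searched as TGACNNNGC on both strands from 250 bases before to 50 after each gene's start (RefSeq, GRCm38.p6). Of 12 windows belonging to 7 of the genes, 1 held it, that of Blvra, against 12.4% of all 32851 windows. Sequence farther from the start was not searched, so a window without the core does not show that its gene lacks one. Hmox1, Slc40a1 and Slc11a2 had no window in the table.

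The libraries held 19274762 to 31409066 counts. Markers of differentiated muscle were abundant, although the cell type tag reads myoblasts: the 7 markers summed to 8079 to 9471 CPM (counts scaled to library size) in gRc+H2O2, 8047 to 8596 CPM in H2O2, 11140 to 11960 CPM in gRc and 10480 to 11119 CPM in vehicle. The 5 markers of undifferentiated or cycling myoblasts summed to 157 to 195, 157 to 176, 243 to 288 and 174 to 250.5 CPM in gRc+H2O2, H2O2, gRc and vehicle. Their log2 fold changes were all below 0 in H2O2 against vehicle and in gRc+H2O2 against gRc, and 1 fell, the muscle stem cell factor Pax7 (-1.27 and -1.15, adjusted p = 0.00352 and 0.00563 by edgeR). Macrophages recycle heme iron, but their markers were near 0: the 6 macrophage markers summed to 0.934 to 2.67 CPM. The 5 fibroblast markers summed to 3589 to 5077, 4665 to 9888, 3999 to 10014 and 3646 to 25319 CPM in gRc+H2O2, H2O2, gRc and vehicle. These sums were mainly collagen mRNA: Col3a1 and Col1a1 reached 15642 and 9557 CPM, both in vehicle replicate 1. Dcn, Pdgfra and Lum reached at most 237, 22.9 and 1.09 CPM in any library. Whether fibroblasts were present was not tested, nor was the part of these cell types in the results. In bulk RNA, fewer cells of a type and less RNA per cell cannot be told apart. Vehicle replicates 1 and 3 and gRc replicate 3 stood apart from the rest, at -68.6, 82.3 and 84.2 on the component with 43.1% of the variance. The rest ran from -44.9 in H2O2 replicate 1 to 22.8 in gRc+H2O2 replicate 2, with H2O2 replicate 3 at -40.5. Calls of the 10 genes that change without these 3 libraries are given beside the results. Since this leaves vehicle with 1 library, that library is then assumed to vary like the other groups. The 3 libraries were picked on these same data and all come from groups without H2O2. Leaving them out can narrow the spread on that side only, so the calls and p-values of that fit are a description. In gRc+H2O2 against gRc, more of all genes also passed without these 3 libraries than with them.

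Hmox1 (chromosome 8, 75093621 to 75100589 on GRCm38, + strand) was the only one of the 10 genes to pass the test with H2O2. It was at 332, 432 and 363 CPM in gRc+H2O2 replicates 1, 2 and 3 and at 221, 334 and 270 CPM in H2O2. It was at 34.1, 27.5 and 54.7 CPM in gRc and at 19.0, 33.0 and 59.8 CPM in vehicle. Every library with H2O2 thus stood above every library without it, as was so for 10.4% of all genes (20.5% separated in either direction), and the gRc+H2O2 and H2O2 libraries overlapped. With H2O2 against vehicle it rose 7.37-fold (95% interval 4.02 to 13.5), or 2.88 on the log2 scale (standard error, SE, 0.40, adjusted p = 0.00111 by edgeR's quasi-likelihood test, adjusted over all 14838 genes by the Benjamini-Hochberg method). With gRc+H2O2 against gRc it rose 9.69-fold (5.23 to 18.0), or 3.28 on the log2 scale (SE 0.40, adjusted p = 0.000570, same edgeR test). Over all genes, 15.7% passed at an adjusted p under 0.05 in H2O2 against vehicle (7.81% rose and 7.84% fell), and 15.7% in gRc+H2O2 against gRc (7.57% rose and 8.15% fell), so 1 gene of 10 was not more than the background. Without the 3 libraries that stood apart the log2 fold changes of Hmox1 were 3.05 and 3.60 (adjusted p = 0.000327 and 1.66e-05 by edgeR).

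Hmox2 (chromosome 16, 4726361 to 4766742, + strand) encodes the constitutive heme oxygenase. It was at 59.3, 56.9 and 62.8 CPM in gRc+H2O2, at 80.2, 64.4 and 79.7 CPM in H2O2, at 74.8, 86.3 and 41.6 CPM in gRc and at 113, 68.8 and 41.9 CPM in vehicle. The lowest values were those of gRc replicate 3 and vehicle replicate 3, and the highest that of vehicle replicate 1, 3 libraries that stood apart on other genes too. H2O2 against vehicle gave a log2 fold change of 0.01 (SE 0.33, 95% interval -0.72 to 0.73), and gRc+H2O2 against gRc gave -0.18 (SE 0.33). Without those 3 libraries gRc+H2O2 against gRc passed, at -0.44 (adjusted p = 0.0250 by edgeR), with only 2 gRc libraries left.

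The balance between the 2 oxygenases is read from TPM, which scale within a library and allow for transcript length. The ratio of Hmox1 to Hmox2 was 4.94, 6.72 and 4.83 in gRc+H2O2 and 1.85, 4.24 and 2.39 in H2O2. It was 0.351, 0.225 and 1.27 in gRc and 0.0958, 0.417 and 1.41 in vehicle. Hmox1 mRNA outnumbered Hmox2 mRNA in every library with H2O2, and otherwise only in replicate 3 of gRc and of vehicle.

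**Figure D1:**
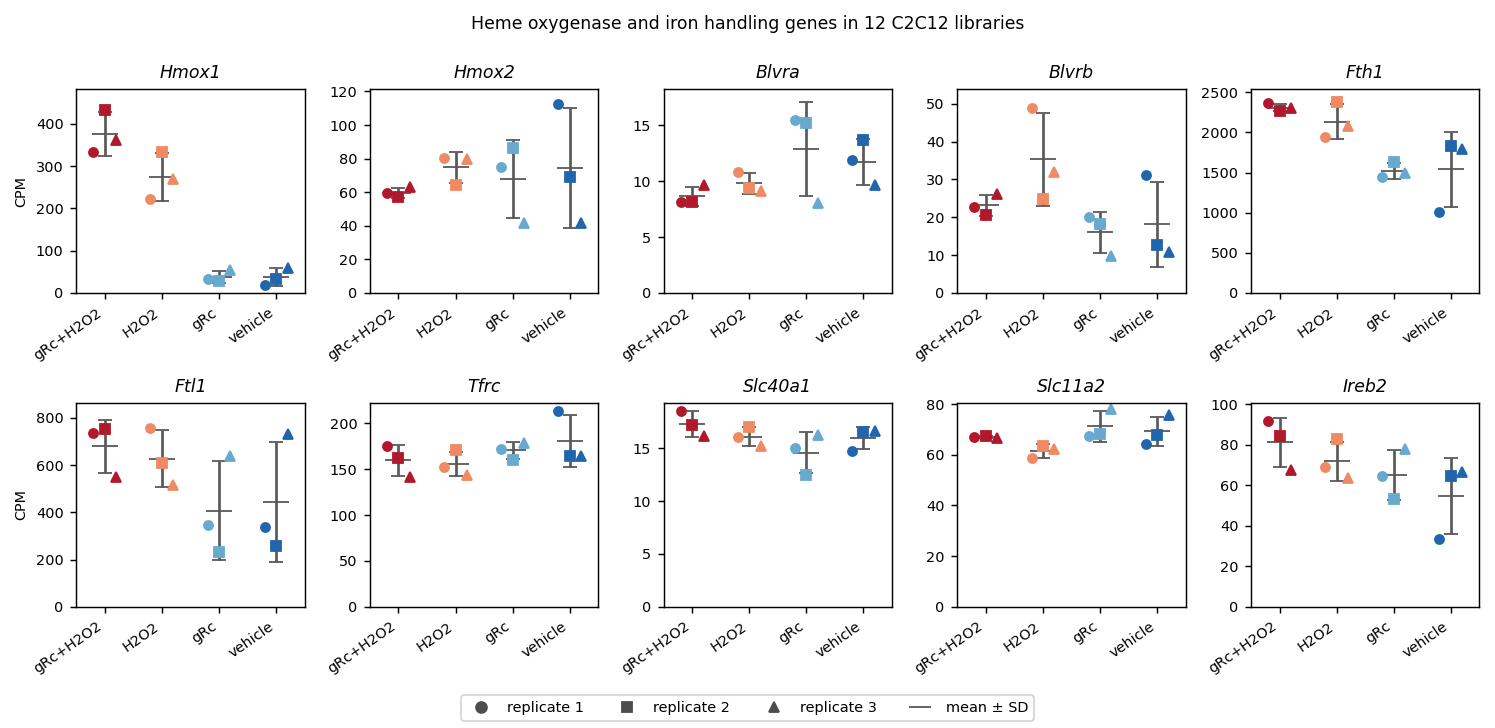
TMM-normalized CPM (y axis) of the 10 genes in the groups gRc+H2O2, H2O2, gRc and vehicle (x axis). Circles are replicates 1, squares replicates 2 and triangles replicates 3, and grey bars give the mean ± SD (n = 3). Hmox1 lies at 221 to 432 CPM in the libraries with H2O2 and at 19.0 to 59.8 CPM in those without, while vehicle and gRc replicates 3 reach the level of the H2O2 libraries for Ftl1.

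The biliverdin reductases had log2 values of opposite sign with H2O2 against vehicle and with gRc+H2O2 against gRc, and neither passed the test. Blvrb (chromosome 7, 27447978 to 27466144, + strand), which also reduces flavins, was at 22.7, 20.7 and 26.2 CPM in gRc+H2O2 and at 48.8, 24.9 and 32.1 CPM in H2O2. It was at 20.0, 18.3 and 9.70 CPM in gRc and at 31.1, 12.6 and 10.8 CPM in vehicle, so that 1 vehicle library lay among the H2O2 libraries. H2O2 against vehicle gave 0.96 on the log2 scale (SE 0.41, adjusted p = 0.144 by edgeR), which did not pass. It passed without vehicle replicate 1, at 1.60 (adjusted p = 0.0112 by edgeR), and without all 3 libraries that stood apart, at 1.48 (adjusted p = 0.0190). With gRc+H2O2 against gRc the groups did not overlap, at 0.54 (SE 0.41, adjusted p = 0.441 by edgeR), as was so for 38.7% of all genes, and the value was 0.27 without the 3 libraries.

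Blvra (chromosome 2, 127070665 to 127097084, + strand), the reductase of adult bile pigment, was at 8.17, 8.17 and 9.66 CPM in gRc+H2O2 and at 10.9, 9.43 and 9.14 CPM in H2O2. It was at 15.5, 15.2 and 8.03 CPM in gRc and at 11.9, 13.7 and 9.63 CPM in vehicle. Apart from replicate 3 of each, the gRc and vehicle libraries were above all those with H2O2. The log2 fold change was -0.57 with gRc+H2O2 against gRc (SE 0.24, adjusted p = 0.146 by edgeR) and -0.26 with H2O2 against vehicle (SE 0.24, adjusted p = 0.520). Against vehicle it was -0.49 without the 3 libraries (adjusted p = 0.0818 by edgeR). The value for gRc+H2O2 against gRc became -0.84 without gRc replicate 3 (adjusted p = 0.0141 by edgeR) and -0.83 without the 3 libraries that stood apart (adjusted p = 0.00197).

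Set against each other per length, Blvrb exceeded Blvra in every library. The ratio of their TPM was 3.80, 3.36 and 3.63 in gRc+H2O2, 6.30, 3.63 and 4.95 in H2O2, 1.66, 1.61 and 1.69 in gRc and 4.60, 1.28 and 1.52 in vehicle. The gRc+H2O2 and gRc ratios did not overlap, whereas vehicle replicate 1 lay within the range of H2O2. No test was made of the ratios, because 3 libraries against 3 cannot give an exact permutation p under 0.10.

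**Figure D2:**
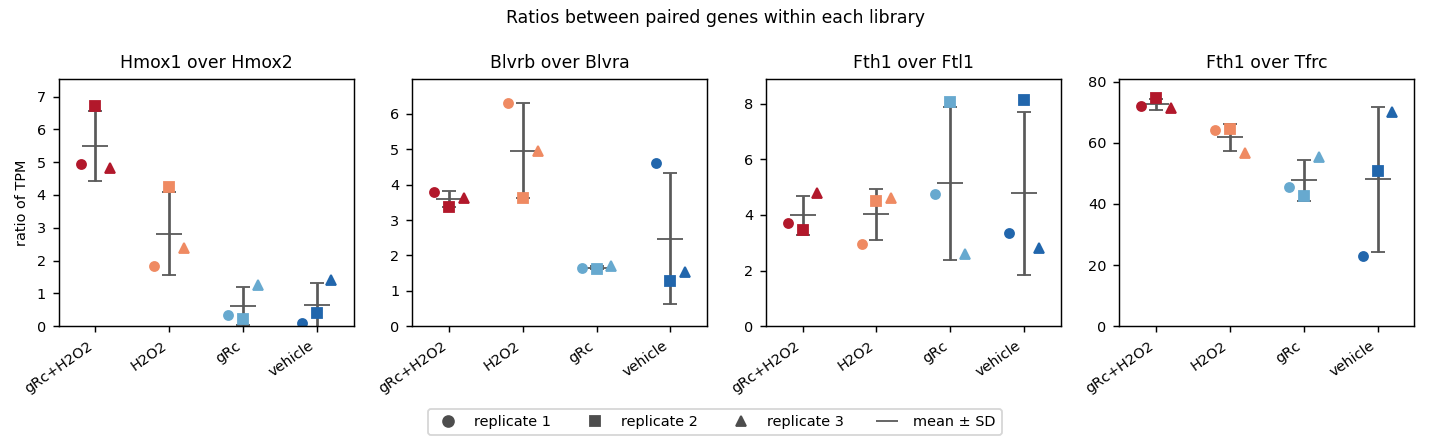
Ratios of TPM (y axis) within each library for Hmox1 over Hmox2, Blvrb over Blvra, Fth1 over Ftl1 and Fth1 over Tfrc, in the groups gRc+H2O2, H2O2, gRc and vehicle (x axis), with 1 symbol a replicate and the mean ± SD in grey (n = 3, cut at 0). The Hmox1 to Hmox2 ratio is 4.83 to 6.72 in gRc+H2O2, and Fth1 over Tfrc spreads from 23.1 to 70.1 in vehicle.

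Both ferritin chains had higher means in the libraries with H2O2, but neither passed the test. Fth1 (chromosome 19, 9980598 to 9985098, + strand), whose product oxidizes iron for storage, was at 2362, 2270 and 2302 CPM in gRc+H2O2 and at 1946, 2376 and 2081 CPM in H2O2. It was at 1445, 1635 and 1490 CPM in gRc and at 1004, 1829 and 1798 CPM in vehicle. In CPM, every library with H2O2 was above every library without it, as for Hmox1 and for 10.4% of all genes (20.5% separated in either direction). In TPM this held for Hmox1 but not for Fth1. There H2O2 replicate 1, at 3934 TPM, was below vehicle replicates 2 and 3, at 4248 and 3986 TPM. The fold change was 1.38 with H2O2 against vehicle (95% interval 0.993 to 1.92; adjusted p = 0.175 by edgeR) and 1.52 with gRc+H2O2 against gRc (1.09 to 2.11; adjusted p = 0.0893). On the log2 scale these are 0.47 and 0.60 (SE 0.22 for both). The value with H2O2 against vehicle was 0.24 without vehicle replicate 1, the lowest library, and 0.21 without all 3 libraries that stood apart (adjusted p = 0.257 and 0.436 by edgeR). The call of Fth1 for gRc+H2O2 against gRc turned on the method: DESeq2 called it (0.61, adjusted p = 0.0229), as did edgeR on only those 2 groups (0.60, adjusted p = 0.0364) and edgeR without the 3 libraries that stood apart (0.58, adjusted p = 0.00904).

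Ftl1 (chromosome 7, 45457944 to 45459884, - strand), the chain that helps iron to mineralize inside the shell, was at 735, 753 and 551 CPM in gRc+H2O2 and at 756, 608 and 516 CPM in H2O2. It was at 348, 233 and 641 CPM in gRc and at 339, 258 and 732 CPM in vehicle. Replicates 1 and 2 of gRc and vehicle were below every library with H2O2, and their replicates 3 were not. The log2 fold change was 0.50 with H2O2 against vehicle (SE 0.42, adjusted p = 0.467 by edgeR) and 0.74 with gRc+H2O2 against gRc (SE 0.42, adjusted p = 0.282). Without the 3 libraries that stood apart these became 1.27 and 1.22 (adjusted p = 0.0219 and 0.00380 by edgeR).

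Ferritin genes have near copies in the mouse genome among which reads can be divided, so their levels are uncertain to that extent. Ftl1-ps1 took 277 to 1228 counts, 3.99% to 6.15% of those of Ftl1, and the other 4 copies looked up took at most 3 counts in a library. Adding the copies to their parents changed no call. The ratio of Fth1 to Ftl1 in TPM was 3.99 ± 0.710 in gRc+H2O2, 4.02 ± 0.929 in H2O2, 5.14 ± 2.76 in gRc and 4.78 ± 2.92 in vehicle (SD, n = 3 each), which overlapped.

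No gene of iron uptake or release among the 10 passed the test. Tfrc (chromosome 16, 32608920 to 32632794, + strand), the receptor that brings in transferrin iron, was at 175, 162 and 142 CPM in gRc+H2O2, at 152, 171 and 144 CPM in H2O2, at 172, 160 and 179 CPM in gRc and at 214, 164 and 165 CPM in vehicle. The groups overlapped, with log2 fold changes of -0.22 in H2O2 against vehicle (SE 0.15, 95% interval -0.54 to 0.11) and -0.09 in gRc+H2O2 against gRc (SE 0.15). Without vehicle replicate 1, its highest library, the value against vehicle was -0.07, and without the 3 libraries it was -0.09. The ratio of Fth1 to Tfrc, a message for storage over one for uptake, was 71.9, 74.7 and 71.3 in gRc+H2O2, 64.1, 64.6 and 56.8 in H2O2, 45.5, 42.5 and 55.3 in gRc and 23.1, 50.7 and 70.1 in vehicle, in TPM. In TPM the gRc+H2O2 ratios were above those of every other library, but narrowly, at 71.3 beside 70.1 in vehicle replicate 3. Vehicle replicate 3 also lay above the H2O2 libraries. In CPM, Fth1 and Tfrc each overlapped between gRc+H2O2 and H2O2. The ratio was not tested or set beside those of other gene pairs.

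Slc11a2 (chromosome 15, 100387898 to 100425072, - strand), which carries ferrous iron out of endosomes, was at 67.2, 67.3 and 66.8 CPM in gRc+H2O2 and at 58.5, 63.5 and 62.4 CPM in H2O2. It was at 67.5, 68.1 and 78.1 CPM in gRc and at 64.1, 67.9 and 75.6 CPM in vehicle. In CPM, each H2O2 library was below each vehicle library, at -0.17 on the log2 scale, which did not pass (SE 0.11, adjusted p = 0.348 by edgeR). Of all genes, 31.1% did not overlap between these groups. The gRc+H2O2 libraries were likewise below those of gRc, at -0.09 (SE 0.11, adjusted p = 0.680 by edgeR), where 38.7% of all genes did not overlap. In TPM, Slc11a2 overlapped between the groups in both of these comparisons. Slc40a1 (chromosome 1, 45908068 to 45926523, - strand), the iron exporter, was at 18.6, 17.2 and 16.1 CPM in gRc+H2O2, at 16.0, 17.1 and 15.3 CPM in H2O2, at 15.0, 12.5 and 16.3 CPM in gRc and at 14.8, 16.5 and 16.7 CPM in vehicle. Its log2 fold change with H2O2 against vehicle was 0.01 (SE 0.14, 95% interval -0.29 to 0.32), with groups that overlapped.

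Ireb2 (chromosome 9, 54863789 to 54912530, + strand), the iron sensor IRP2, was at 91.8, 84.2 and 67.8 CPM in gRc+H2O2 and at 69.0, 82.8 and 63.7 CPM in H2O2. It was at 64.5, 53.5 and 78.0 CPM in gRc and at 33.3, 64.6 and 66.7 CPM in vehicle. Vehicle replicate 1 stood lowest, and it was also the library in which the GC-poorest genes were lowest against the GC-richest (-0.90 on the log2 scale, against -0.35 to 0.51 in the others). The transcripts of Ireb2 have the lowest GC content of the 10 genes, 39.7%. Those of Tfrc come next, at 42.1%, and Tfrc was highest in vehicle replicate 1, at 214 CPM. A part of GC content in the values of Ireb2 was not tested. The log2 fold change with H2O2 against vehicle was 0.39 (SE 0.25, adjusted p = 0.340 by edgeR), and 0.38 with a GC spline that was added once the data had been seen (adjusted p = 0.0735). Without vehicle replicate 1 it was 0.13 (adjusted p = 0.624 by edgeR), and without the 3 libraries that stood apart 0.14 (adjusted p = 0.698). With gRc+H2O2 against gRc it was 0.32 (SE 0.25, adjusted p = 0.468), and 0.46 without the 3 libraries (adjusted p = 0.0580 by edgeR).

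**Figure D3:**
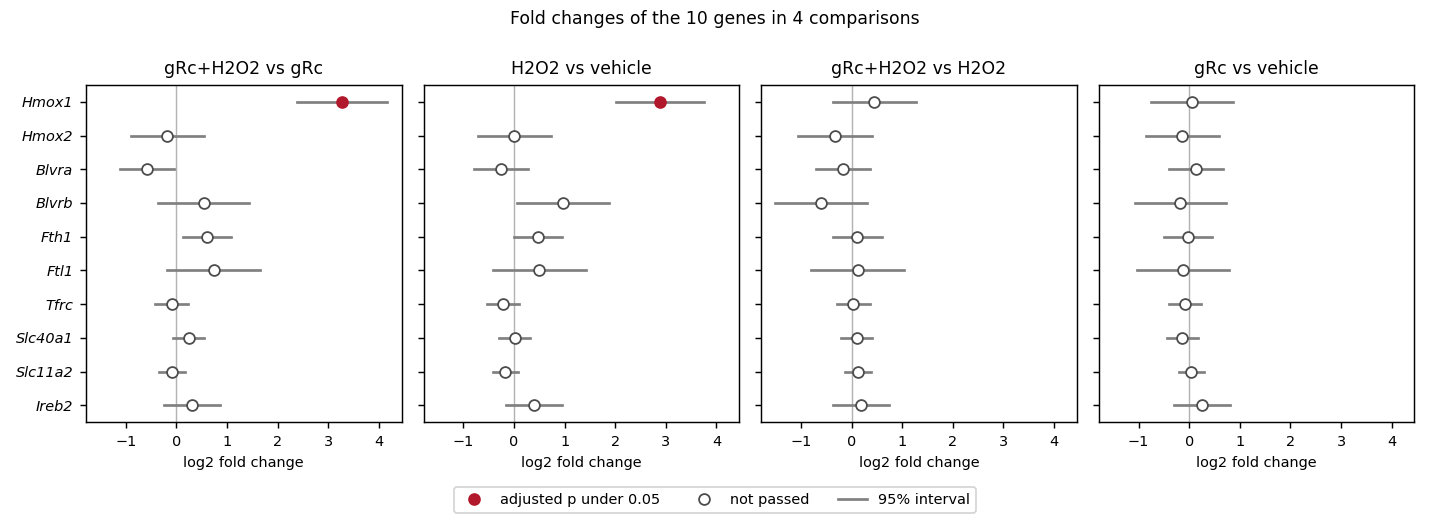
Log2 fold changes (x axis) of the 10 genes (rows) in 4 comparisons, with 95% intervals as lines and filled circles at an adjusted p under 0.05 by edgeR's quasi-likelihood test. Hmox1 is filled at 3.28 in gRc+H2O2 against gRc and at 2.88 in H2O2 against vehicle, and no gene is filled in gRc+H2O2 against H2O2 or in gRc against vehicle.

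Over the 10 genes, the median log2 fold change was 0.20 in H2O2 against vehicle with 7 above 0, beside a median of -0.06 over all genes tested. In gRc+H2O2 against gRc it was 0.28 with 6 above 0, beside -0.04. Against vehicle, gRc+H2O2 gave 1 call among the 10, at a background of 17.4% (8.55% rose and 8.89% fell), and this was Hmox1 at 3.33 (SE 0.41, adjusted p = 0.000502 by edgeR). Fth1 was at 0.58 (SE 0.22, adjusted p = 0.0904 by edgeR) and Ireb2 at 0.57 (SE 0.25, adjusted p = 0.150 by edgeR). In CPM neither overlapped between these groups, as was so for 35.3% of all genes, but Ireb2 did in TPM. DESeq2 called Fth1 here (0.58, adjusted p = 0.0312). Without the 3 libraries that stood apart, Fth1 was at 0.32 and Ireb2 at 0.32 (adjusted p = 0.223 and 0.340 by edgeR), while Ftl1 (1.39, adjusted p = 0.0161 by edgeR) and Blvra (-0.67, adjusted p = 0.0269) passed as well.

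The question that pretreatment poses is whether gRc moved these genes beyond H2O2 alone. In gRc+H2O2 against H2O2, 0 of the 10 genes passed, at a background of 0% (122 of 14838 genes had an unadjusted p under 0.05 with edgeR, and DESeq2 called 2). Hmox1 averaged 376 ± 51.2 CPM in gRc+H2O2 and 275 ± 56.8 CPM in H2O2 (SD, n = 3 each), a 1.37-fold difference with a 95% interval of 0.776 to 2.40 (log2 0.45, SE 0.37, adjusted p = 0.922 by edgeR). Blvrb had the log2 value farthest from 0, -0.60 (SE 0.41, interval -1.50 to 0.30), followed by Hmox1 and then Hmox2 at -0.32 (SE 0.33, interval -1.05 to 0.40), whose groups did not overlap. Slc11a2 did not overlap in CPM either, higher in gRc+H2O2 at 0.13 (SE 0.11, interval -0.12 to 0.37), where 15.3% of all genes did not overlap. In TPM it did overlap.

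The ferritin genes were close in these groups, with 0.11 for Fth1 (interval -0.36 to 0.59) and 0.12 for Ftl1 (interval -0.80 to 1.03). Tfrc was at 0.04 (interval -0.29 to 0.36), Slc40a1 at 0.10 (-0.20 to 0.41), Ireb2 at 0.18 (-0.38 to 0.73) and Blvra at -0.18 (-0.71 to 0.35). These intervals leave room for differences of either sign, and a p that misses the threshold does not show that the groups were alike.

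Without H2O2, gRc against vehicle gave 0 of 10 calls, again at a background of 0% (74 genes had an unadjusted p under 0.05 with edgeR, and DESeq2 called 0). Hmox1 averaged 38.8 ± 14.1 CPM in gRc and 37.3 ± 20.7 CPM in vehicle (SD, n = 3 each), a 1.04-fold difference with a 95% interval of 0.589 to 1.83. Ireb2 was at 0.25 on the log2 scale (SE 0.25, interval -0.30 to 0.81), but at -0.01 without vehicle replicate 1 and at -0.14 without the 3 libraries that stood apart. Without those 3, Hmox1 was at -0.10 and Blvrb at 0.60. No gene of the 10 separated the groups, as 1.61% of all genes did. Whether gRc acted differently with and without H2O2 was tested as an interaction, which gave 0.39 for Hmox1 on the log2 scale (SE 0.52, interval -0.76 to 1.55), 0.55 without the 3 libraries that stood apart, -0.11 without vehicle replicate 3 and 0.72 without gRc replicate 3. It gave 0 calls among the 10 or over all genes (background 0%; 87 had an unadjusted p under 0.05 with edgeR, and DESeq2 called 1).

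Ordered by TPM, Hmox1 stood next after the ferritins in both groups with H2O2, at 407 ± 59.3 TPM in gRc+H2O2 and 284 ± 69.3 TPM in H2O2, above Hmox2 at 74.4 ± 3.83 and 106 ± 18.9 TPM. In vehicle it came lower: there Fth1 averaged 3407 ± 1240 TPM, Ftl1 841 ± 494, Hmox2 110.5 ± 78.2, Tfrc 75.5 ± 16.2, Blvrb 42.2 ± 29.3, Hmox1 39.8 ± 22.2, Slc11a2 38.5 ± 4.80, Blvra 17.8 ± 4.00, Ireb2 14.3 ± 5.37 and Slc40a1 9.41 ± 2.61 TPM (SD, n = 3). From Hmox2 to Slc11a2 in that order, and again from Blvra to Slc40a1, neighbours did not differ beyond their spread.

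The genes whose log2 CPM followed Hmox1 most closely over the 12 libraries, among 10718 of sufficient level, were Eif1ad (Pearson's r 0.996), Zc3hav1 (0.995), Snhg1 (0.994), Myc (0.994) and Adar (0.993). The libraries fall into those with and those without H2O2, and all of these values share that contrast. Zc3hav1 and Adar encode proteins that bind or edit viral and cellular RNA, Myc a transcription factor of growth, and Snhg1 a host of small nucleolar RNAs. Myc was at 160 ± 8.73 CPM in gRc+H2O2, 128 ± 17.8 CPM in H2O2, 33.9 ± 7.72 CPM in gRc and 32.3 ± 11.1 CPM in vehicle (SD, n = 3 each).

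Most of the listed factors that act on the Hmox1 gene, directly or, as Keap1 does, through NRF2, rose with H2O2. Of these 8 genes, activators and the repressor Bach1 among them, 7 rose and 0 fell against vehicle, where 7.81% of all genes rose. Nfe2l2, which encodes NRF2, was at 1.09 on the log2 scale (SE 0.30, adjusted p = 0.0338 by edgeR), and the gene of its rival Bach1 also rose, by 0.68 (SE 0.13). The small MAF genes Maff (1.48, SE 0.26) and Mafg (1.20, SE 0.20) rose, as did Atf4 (1.45, SE 0.24), the factor of the integrated stress response, and Hif1a (0.59, SE 0.14), that of low oxygen. Keap1, whose product marks NRF2 for degradation, was at 0.18 (SE 0.33, adjusted p = 0.756). Without the 3 libraries that stood apart 5 of the 8 passed, and Nfe2l2 and Hif1a were not among them.

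NRF2 targets outside heme metabolism moved the same way, with 9 of 10 past the test and 0 lower. Among them were Srxn1, which repairs peroxiredoxins (2.62, SE 0.13), Txnrd1, the cytosolic thioredoxin reductase (2.18, SE 0.17), Gclm (2.03, SE 0.12) and Gclc (1.40, SE 0.16), the subunits that make glutathione's precursor, Osgin1 (1.70, SE 0.13) and Gsr, glutathione reductase (0.84, SE 0.13). Leaving out the 3 libraries also gave 9. In gRc+H2O2 against gRc, 6 of the 8 factors and 9 of the 10 targets rose, at a background of 7.57%. The median of the 10 targets was 1.55 in H2O2 against vehicle, while that of the 10 heme and iron genes was 0.20.

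**Figure D4:**
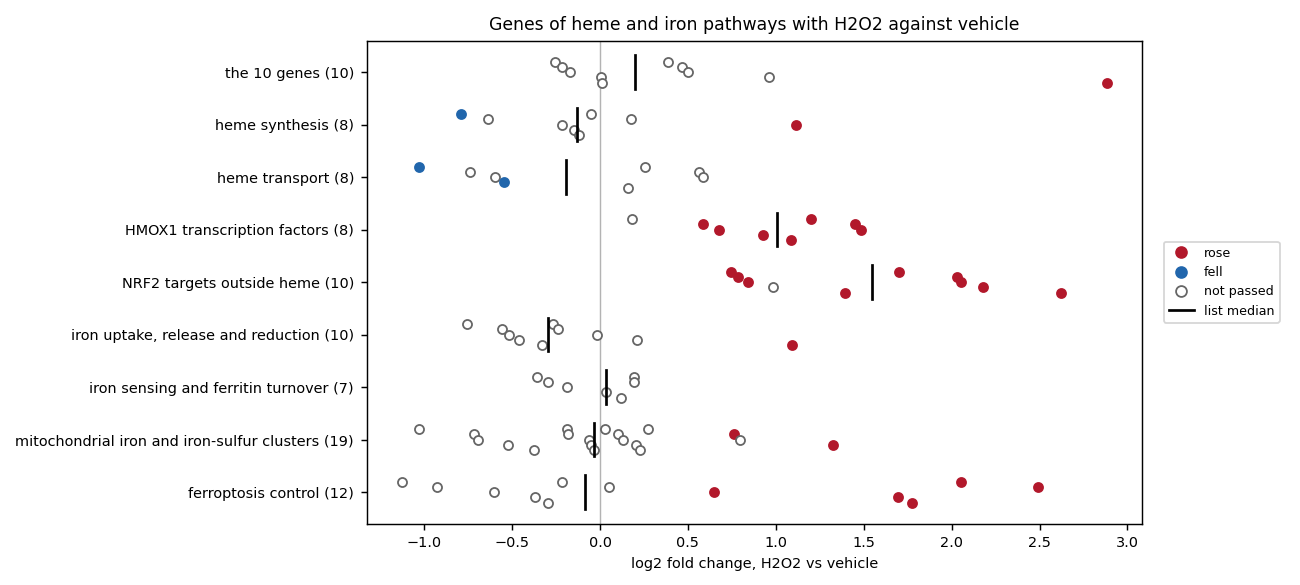
Log2 fold changes with H2O2 against vehicle (x axis) of the 10 genes and of 8 lists of related genes (rows, with the number measured), red where a gene rose and blue where it fell at an adjusted p under 0.05 by edgeR, open where it did not pass, with a black line at the median. The list of Hmox1 transcription factors, which also holds Keap1, and the NRF2 targets lie to the right, with medians of 1.01 and 1.55. The lists of iron uptake, sensing and mitochondrial iron have medians of -0.30, 0.03 and -0.03.

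Heme synthesis and heme transport gave 2 calls each in H2O2 against vehicle, where 15.7% of all genes passed. Of 8 genes of synthesis 1 rose, Cpox (1.11, SE 0.29), and 1 fell, Ppox (-0.79, SE 0.19), which act in successive steps of the pathway. Alas2, the red cell form of the entry enzyme, had at most 1 count in a library. Of 8 genes of heme transport 0 rose and 2 fell, the heme and folate importer Slc46a1 (-1.03, SE 0.20) and the exporter Abcg2 (-0.55, SE 0.16). Without the 3 libraries that stood apart, Cpox and Slc46a1 no longer passed and Slc48a1 did.

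Genes of iron uptake, release and reduction gave 1 call in 10 and had a median of -0.30 with 2 above 0. The call was Steap1, a metalloreductase relative (1.09, SE 0.27), which was lost without the 3 libraries. Of 7 genes of iron sensing and ferritin turnover 0 passed with edgeR and 0 with DESeq2, and without the 3 libraries 1 fell, Nedd4l. Aco1, the other iron regulatory protein, was at 0.12 (SE 0.11), Fbxl5, which directs IRP2 to degradation when iron is ample, at 0.19 (SE 0.27), and Ncoa4, the receptor that delivers ferritin to autophagy, at 0.20 (SE 0.15). Hepcidin's gene Hamp had at most 2 counts in a library and was not tested.

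Of 19 genes of mitochondrial iron and iron-sulfur clusters 2 rose and 0 fell, the iron importer Slc25a28 (0.76, SE 0.14) and the chaperone Hspa9 (1.32, SE 0.28). DESeq2 gave 3 higher and 1 lower, and leaving out the 3 libraries gave 2 higher, Hspa9 and Slc25a37. Of 12 genes that control ferroptosis, a death by iron-dependent lipid oxidation, 5 rose and 0 fell, where 7.81% of all genes rose, and the median of the list was -0.08. They were Slc3a2, the partner of the cystine importer (1.77, SE 0.14), Chac1, which degrades glutathione (2.06, SE 0.19), Gch1, which makes tetrahydrobiopterin (1.70, SE 0.24), Ptgs2, a prostaglandin synthase (2.49, SE 0.33), and the factor Nfe2l1 (0.65, SE 0.17). DESeq2 gave 5 higher and 2 lower. Leaving out the 3 libraries that stood apart gave 4 higher and 1 lower, as Nfe2l1 no longer passed and Acsl4 did. The members of this list both guard against and mark that death. Gpx4, the lipid peroxidase that prevents it, was at 0.05 (SE 0.22, adjusted p = 0.909 by edgeR).

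Against gRc, the gRc+H2O2 libraries gave 1 call in heme synthesis (Cpox, 1.04), 0 in heme transport, in uptake and in sensing, 2 in the mitochondrial list (Slc25a28, 0.81, and Hspa9, 1.11) and 5 in the ferroptosis list, of which Alox5 fell (-0.48), where 15.7% of all genes passed. When the 3 libraries that stood apart were left out and 5153 of 15398 genes passed, these lists in that order gave 4, 4, 2, 1, 3 and 7 calls. In gRc+H2O2 against H2O2 and in gRc against vehicle, 0 genes passed in each of the 8 lists with edgeR, and also with DESeq2. Nfe2l2 was at 0.34 and Bach1 at 0.09 on the log2 scale in gRc+H2O2 against H2O2, and neither passed.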

How the data were processed

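The authors trimmed paired reads of poly(A)-selected RNA from a directional kit, aligned them with STAR 2.7.3a to GRCm38 (mm10) and quantified genes with RSEM 1.3.3. The deposited expected counts are not normalized and divide shared reads among genes; the strand setting is not given in the sources used here. The authors' TPM, scaled within a library, and the effective length deposited as a score served ratios and alternatives. Rounded expected counts were filtered by edgeR's filterByExpr, and all 12 libraries were fitted together by a quasi-likelihood F test with TMM factors (R 4.3.3, edgeR 4.0.16). CPM use the same factors. SE was derived as the absolute log2 fold change over the root of F. Adjusted p is Benjamini-Hochberg over 14838 genes, with a threshold of 0.05. Tests were checked on simulated data.

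The 10 genes and the lists were chosen with earlier results of these data known. Genes named from the lists are those that passed (the 6 smallest p, where more did) and the regulators Nfe2l2, Keap1, Bach1, Aco1, Fbxl5 and Ncoa4; Slc48a1, Slc25a37, Nedd4l, Acsl4, Pax7, Alas2, Hamp and Gpx4 were chosen after their values were seen. Alternatives were DESeq2 1.42.0, RLE and upper quartile factors, no filter, a minimum of 10 counts, a block for replicate number, fits of only the groups compared, offsets of effective length, limma 3.58.1 on log2(TPM + 0.5) and log2(TPM + 0.1), ferritin copies added to parents, mitochondrial genes left out, and libraries left out. A GC spline (5 degrees of freedom), also with the block, and the list counts under alternatives were added after seeing the data. Deviations from the group means, matched by replicate number, correlated at 0.460, 0.271 and 0.860 between gRc and vehicle. Between gRc+H2O2 and H2O2 they correlated at 0.0802, 0.402 and 0.309. Each gRc+H2O2 library correlated best with the H2O2 library of its own number. In gRc, replicate 2 correlated best with vehicle replicate 1. Matched in the same way, H2O2 and vehicle correlated at 0.440, 0.294 and -0.283, and gRc+H2O2 and gRc at 0.0206, -0.496 and -0.550. The values for gRc+H2O2 and vehicle were all below 0, at -0.0305, -0.0358 and -0.551. One list of cell type markers is not reported here.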

Additional observations from a re-analysis of the deposited data

How the results depend on the processing

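Hmox1 kept its direction and its call in H2O2 against vehicle, gRc+H2O2 against gRc and gRc+H2O2 against vehicle under every alternative run, with log2 fold changes of 2.57 to 3.39, 3.09 to 3.60 and 3.02 to 3.83. No call of the 10 genes was lost or reversed. Of 1310 values of single genes under alternatives, 89 changed sign without passing the test in either fit. The count of the 10 genes past the threshold became 3 in H2O2 against vehicle, 5 in gRc+H2O2 against gRc and 3 in gRc+H2O2 against vehicle without the 3 libraries that stood apart. It became 2 with DESeq2 in the last of these and in gRc+H2O2 against gRc, 2 in gRc+H2O2 against gRc when only the groups compared were fitted, and 2 in H2O2 against vehicle with the GC spline and replicate block, which called Blvrb (1.10, adjusted p = 0.0209 by edgeR). Leaving out 1 library gave 1 to 2 in H2O2 against vehicle and in gRc+H2O2 against gRc. Over all genes, 739 passed in H2O2 against vehicle and 992 in gRc+H2O2 against vehicle when only the groups compared were fitted. With limma on log2(TPM + 0.5) and log2(TPM + 0.1), 1492 and 1482 passed in H2O2 against vehicle, 1459 and 1473 in gRc+H2O2 against gRc, and 1568 and 1560 in gRc+H2O2 against vehicle. DESeq2 called 2 in gRc+H2O2 against H2O2 and 1 in the interaction, and leaving out the 3 libraries gave 5153 in gRc+H2O2 against gRc. Leaving out 1 library gave 1267 to 3108 genes in H2O2 against vehicle, 1186 to 2025 in gRc+H2O2 against gRc and 1294 to 2865 in gRc+H2O2 against vehicle. The replicate block changed no call of the 10 genes and gave 2305, 2354, 2655 and 0 genes in H2O2 against vehicle, gRc+H2O2 against gRc, gRc+H2O2 against vehicle and gRc against vehicle. The causes of these shifts were not tested. With 3 libraries a group, the 95% intervals of Hmox1, Hmox2, Blvra, Blvrb, Ftl1 and Ireb2 in H2O2 against vehicle each span more than 2-fold. As fold changes, that of Hmox2 ran from 0.608 to 1.66, that of Blvra from 0.578 to 1.21 and that of Ireb2 from 0.890 to 1.93. Smaller changes of these genes could not be told from the spread.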
